A study of Mus musculus with 12 samples.

Results

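A set of 10 genes of prostaglandin and leukotriene synthesis were followed in RAW264.7, a transformed mouse macrophage-like cell line, across an RNA-seq experiment of 12 libraries. They were taken by symbol from the expression table, where each of the 10 symbols matched 1 of 53801 gene records. The groups, with 3 libraries each, were cells with siRNA against Synbindin, the product of Trappc4, given 100 ng/ml LPS for 4 h; cells with control siRNA given the same LPS; and the same pair of siRNA groups without LPS. They are called silenced and control cells here. All 4 groups came from the same line and all had received an siRNA, so untransfected cells were not compared. The labels number the replicates without saying what sets them apart, so p-values measure only the spread between these libraries, which may be technical.

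Eicosanoids are short-range lipid signals made from arachidonic acid. Cytosolic phospholipase A2 (Pla2g4a) frees arachidonic acid from membrane phospholipids. Cyclooxygenases then convert it to prostaglandin H2, from which prostaglandin E synthases and thromboxane synthase make their products, while 5-lipoxygenase (Alox5), its activating protein FLAP (Alox5ap) and leukotriene A4 hydrolase (Lta4h) lead to leukotriene B4. Macrophages are known to make prostaglandin E2 after Toll-like receptor 4 is engaged by LPS, and cyclooxygenase-2 (Ptgs2) is the classic inducible enzyme of that route.

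Levels are FPKM, fragment numbers corrected for transcript length and for the mapped fragments of the library, so levels of different genes may be set side by side. Fold changes are limma's, on the log2(FPKM + 1) scale with their SE, and a gene was called at a Benjamini-Hochberg adjusted p under 0.05 over 13078 tested genes. A gene was tested where at least 3 of the 12 libraries reached FPKM of 1. Of the 10 genes, 9 passed this filter and Tbxas1 did not. Ptges passed it only through its 6 LPS libraries and Ptgs2 mainly so, which means that their response to LPS was partly a condition of being tested.

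The 12 libraries held 11672 to 12351 genes at FPKM of 1 or more, and libraries of a group agreed at Spearman correlations of 0.958 to 0.972 over genes. Estimated depth was 13.5 to 17.6 M fragments (M, mega) in silenced and 10.1 to 12.9 M in control cells after LPS, ranges that do not overlap, and 7.36 to 16.2 M and 7.86 to 11.6 M without LPS. Trappc4, a subunit of the TRAPP vesicle-tethering complexes, averaged 7.28 ± 1.26 FPKM in silenced and 13.0 ± 3.22 FPKM in control cells after LPS, so that 56.1% remained. Without LPS it averaged 5.89 ± 1.43 FPKM in silenced and 13.2 ± 0.793 FPKM in control cells (SD, n = 3 each), so that 44.5% remained. The 3 silenced libraries were below the 3 control libraries at both times, and the log2 fold changes of -0.74 and -1.07 did not pass (adjusted p = 0.12 and 0.0558). The fold change without LPS passed in 3 of 22 alternatives, 1 of them without replicate 3 of the control LPS group (adjusted p = 0.0403). Trappc4 overlaps the protein-coding gene Rps25 on the other strand. How strand was handled in the deposited FPKM is not given, so the Trappc4 level is uncertain. Of 10 macrophage markers, 9 reached FPKM of 1, among them Cd68, Csf1r and Lyz2, with Mrc1 the exception. Their summed level was 2090 to 2820 FPKM in silenced and 1550 to 1940 FPKM in control cells after LPS, and 2200 to 2660 and 1600 to 1740 FPKM without LPS. Lyz2 averaged 1100 ± 229 FPKM in silenced and 463 ± 40.9 FPKM in control cells after LPS, and Cd14 601 ± 135 and 416 ± 103 FPKM. Fcgr1 averaged 33.9 and 19.3 FPKM, Msr1 62.9 and 40.9 FPKM and Adgre1 14.1 and 11.4 FPKM in the same groups, and both Itgam records were also higher by mean in silenced cells. Cd68 averaged 390 ± 24.4 and 453 ± 58.1 FPKM, Csf1r 174 ± 33.0 and 203 ± 39.9 FPKM and Spi1 149 and 152 FPKM. The higher sum in silenced cells is thus not a feature of every marker. Mast cells and neutrophils also make leukotrienes, and of their 7 and 8 markers only the mast cell gene Hdc reached FPKM of 1, with Cpa3, Fcer1a and Ms4a2 listed at 0 in all libraries. Hdc averaged 11.7 ± 0.343 FPKM in silenced and 7.89 ± 0.555 FPKM in control cells after LPS, and 0.103 ± 0.119 and 0.249 ± 0.0948 FPKM without LPS. Mitochondrial genes held 12.8 to 13.8% of the summed FPKM in silenced and 12.2 to 13.1% in control cells after LPS, and 15.3 to 16.8% and 17.1 to 18.7% without LPS, so this share was lower in every LPS library and its part in the results was not tested. In such bulk samples, fewer cells expressing a gene and less RNA per cell cannot be told apart.

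**Figure D1:**
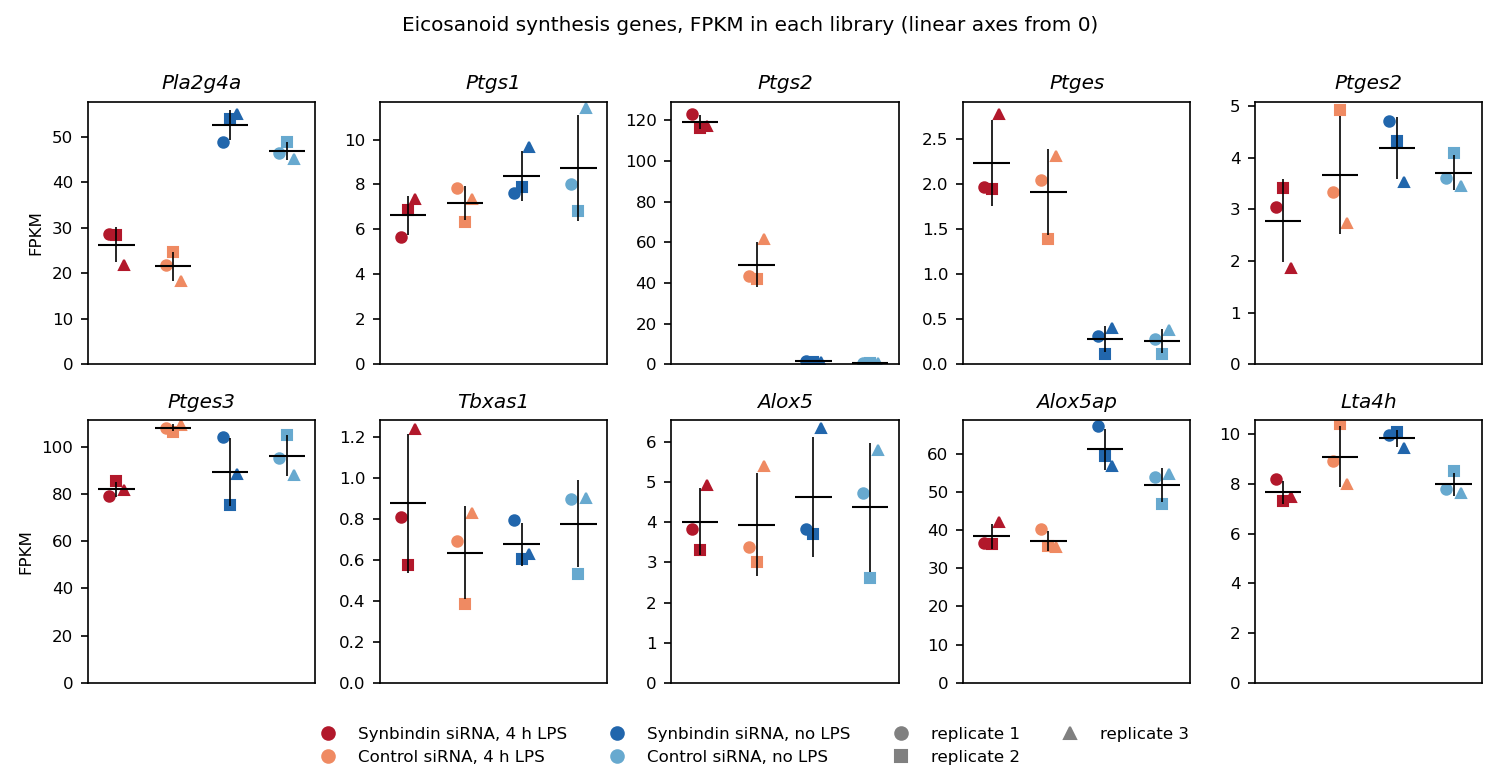
FPKM (y axes, linear and from 0, each with its own range) of the 10 genes in every library. Points are libraries, shaped by replicate number, horizontal lines are group means and vertical lines are ± 1 SD (n = 3); groups run from silenced cells with LPS at the left to control cells without LPS at the right. Ptgs2 and Ptges stand high after LPS, Pla2g4a and Alox5ap stand high without it, and Ptgs2 at 116.3 to 122.6 FPKM in silenced cells with LPS lies above the 42.0 to 61.5 FPKM of control cells with LPS.

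Ptgs2, the inducible cyclooxygenase, showed the widest range of the 10 genes, with a highest level 317 times its lowest. After LPS it stood at 122.6, 116.3 and 116.9 FPKM in silenced cells, against 43.5, 42.0 and 61.5 FPKM in control cells. Without LPS it stood at 1.79, 1.25 and 0.946 FPKM in silenced cells, against 0.65, 0.387 and 0.737 FPKM in control cells. The 4 groups did not overlap, and their order ran from silenced cells with LPS through control cells with LPS and silenced cells without LPS to control cells without LPS. By mean level, Ptgs2 ranked 420 of all genes in silenced and 1081 in control cells after LPS.

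LPS raised Ptgs2 in both kinds of cell. The log2 fold change was 5.70 ± 0.16 in silenced (adjusted p = 5.09e-10) and 4.96 ± 0.16 in control cells (adjusted p = 1.58e-09). As ratios of mean FPKM these were 89.2 and 82.9. After LPS, Ptgs2 was higher in silenced than in control cells by 1.28 ± 0.16 on the log2 scale (95% interval 0.92 to 1.64, adjusted p = 0.00946), and the means of 118.6 ± 3.44 and 49.0 ± 10.9 FPKM had a ratio of 2.42. Without LPS the log2 difference was 0.54 ± 0.16 and did not pass (adjusted p = 0.237), although the means of 1.33 ± 0.43 FPKM in silenced and 0.591 ± 0.182 FPKM in control cells had a similar ratio of 2.25. The difference between the LPS responses of silenced and control cells was 0.74 ± 0.23 (95% interval 0.23 to 1.24) and did not pass (adjusted p = 0.3). It depends on the pseudocount, being 0.25 (adjusted p = 0.824) when 0.1 in place of 1 was added to FPKM.

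The Ptgs2 call after LPS held in 20 of 22 alternative fits. It was lost when only the LPS groups were fitted (adjusted p = 0.0563) and when replicate 2 of the silenced LPS group was left out (adjusted p = 0.0506), with log2 fold changes of 1.28 and 1.29. The estimated depth, which is rough, was higher in the silenced LPS libraries. Of the 9 macrophage markers that reached FPKM of 1, Lyz2, Cd14, Fcgr1, Msr1, Adgre1 and Itgam were also higher there by mean. Cd68, Csf1r and Spi1 were not. With estimated depth as a covariate the log2 fold change was 1.19 (adjusted p = 0.0417), and the part of the marker level in this result was not tested.

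Across the 9 tested genes, Ptgs2 was the single one called between silenced and control cells after LPS, where 0.719% of all tested genes were called and 0.314% were higher. There, 4 of the 9 (Ptgs2, Ptges3, Pla2g4a and Lta4h) had an unadjusted limma p under 0.05, beside 1697 of all 13078 tested genes. Without LPS, limma called none of the 9, where 0.214% of all tested genes were called. At an unadjusted p under 0.05 there were 3 of the 9, beside 1565 of all 13078 tested genes. For the difference between the LPS responses limma again called none, where the share over all tested genes was 0.0612%. At an unadjusted p under 0.05 there were 2 of the 9, beside 1480 of all 13078. The median log2 fold change of silencing over the 9 was 0.04 after LPS and 0.13 without, against -0.03 and 0.01 over all tested genes.

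Ptgs1, the constitutive cyclooxygenase, did not follow Ptgs2. It stood at 5.66, 6.87 and 7.36 FPKM in silenced and 7.82, 6.33 and 7.35 FPKM in control cells after LPS, and at 7.63, 7.88 and 9.68 FPKM and 8.0, 6.83 and 11.4 FPKM without LPS. The silenced and control groups overlapped at both times, and its 4 contrasts were not called. The log2 difference between silenced and control cells after LPS was -0.10 (95% interval -0.46 to 0.26), so a change of the size seen for Ptgs2 lay outside the interval. LPS shifted it by -0.30 ± 0.16 in silenced and -0.23 ± 0.16 in control cells, which becomes -0.09 and -0.06 relative to the median of all tested genes.

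The balance of cyclooxygenase transcripts turned over with LPS. Ptgs2 made up 95.6, 94.4 and 94.1% of the summed Ptgs1 and Ptgs2 FPKM in silenced cells after LPS, against 84.8, 86.9 and 89.3% in control cells after LPS. Without LPS the shares were 19.0, 13.7 and 8.91% in silenced and 7.51, 5.36 and 6.10% in control cells. No share of the silenced groups overlapped that of the control group at the same time, and Ptgs1 was the larger transcript in all 6 libraries without LPS and the smaller in all 6 with it. With 3 libraries a group these shares were not tested.

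**Figure D2:**
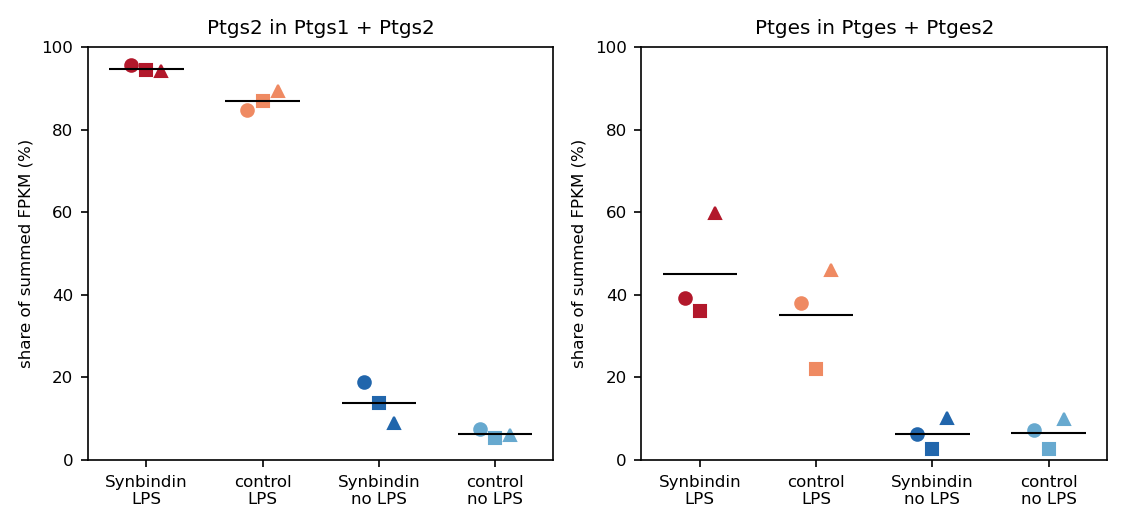
Share of summed FPKM (y axis, %, 0 to 100) held by the inducible enzyme in each library; points are libraries (circle, square and triangle for replicates 1, 2 and 3), lines are group means. Ptgs2 averaged 94.7% of the cyclooxygenase sum in silenced and 87.0% in control cells with LPS, and Ptges 45.1% and 35.2% of the sum of Ptges and Ptges2, with wide spread between replicates. Ptges3 is left out of that sum, and with it Ptges held 2.57% and 1.68%.

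Ptgs2 lies on mouse chromosome 1 (GRCm38, chr1:150100031-150108227, plus strand) and overlaps no other annotated gene. Its promoter window from RefSeq (GRCm38.p6, 250 bases before to 50 after the transcript start) is shown with those of Ptgs1, which was not called with LPS, and Ptges, which was, because the 3 genes differ in their response. The windows are chr1:150099781-150100080 (plus strand) for Ptgs2, chr2:36230176-36230475 (plus strand) for Ptgs1 and chr2:30903248-30903547 (minus strand) for Ptges. The Ptges window lies at the RefSeq start, inside the longer annotated span of the gene. Capitals mark matches, on either strand, to the motifs searched, other than the common E-box CANNTG.
Ptgs2: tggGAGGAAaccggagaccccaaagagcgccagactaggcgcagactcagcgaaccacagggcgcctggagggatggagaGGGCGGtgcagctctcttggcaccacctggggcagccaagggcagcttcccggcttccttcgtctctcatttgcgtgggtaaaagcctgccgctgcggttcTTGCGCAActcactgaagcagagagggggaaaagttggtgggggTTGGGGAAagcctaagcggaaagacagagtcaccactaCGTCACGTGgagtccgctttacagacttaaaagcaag
Ptgs1: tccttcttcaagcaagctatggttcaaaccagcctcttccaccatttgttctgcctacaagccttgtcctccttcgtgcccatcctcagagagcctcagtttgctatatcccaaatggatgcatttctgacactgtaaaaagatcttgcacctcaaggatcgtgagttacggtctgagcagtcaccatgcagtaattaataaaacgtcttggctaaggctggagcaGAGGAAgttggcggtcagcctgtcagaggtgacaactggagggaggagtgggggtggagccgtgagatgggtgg
Ptges: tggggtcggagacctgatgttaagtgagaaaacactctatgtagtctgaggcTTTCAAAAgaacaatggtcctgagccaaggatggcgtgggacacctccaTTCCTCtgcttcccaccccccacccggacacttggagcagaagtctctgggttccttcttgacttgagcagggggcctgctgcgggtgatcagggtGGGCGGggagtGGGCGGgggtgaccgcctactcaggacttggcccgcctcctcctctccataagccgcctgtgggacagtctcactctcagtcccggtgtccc
In the Ptgs2 window the C/EBP motif TTNNGNAA matched at 69 and 25 bases before the start, the first of these on both strands. The cyclic AMP response element core TGACG matched on the minus strand 14 bases after the start and overlaps the E-box CACGTG. A GC box (GGGCGG) and the PU.1 core GAGGAA matched 170 and 247 bases before the start. The Ptges window held 2 GC boxes, 1 C/EBP match and 1 GAGGAA match, and the Ptgs1 window held GAGGAA 24 bases before the start.

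Among 32851 RefSeq promoter windows of mouse genes, 40.7% held the C/EBP motif, 20.8% TGACG, 7.15% CACGTG, 35.7% the GC box, 28.3% GAGGAA and 72.3% CANNTG. None of the 9 genes with a window matched the kappaB motif, GGGNN followed by TTNCC (4.79% of all windows), the EGR motif GCGNGGGCG (5.55%) or the interferon element, TTTCNN followed by TTTC (3.44%). Of the 9 genes, the AP-1 motif TGANTCA (7.81%) matched only in Tbxas1, and the TATA box TATAAA (13.6%) matched in Tbxas1 and in 1 of the 2 windows of Pla2g4a. Such matches describe letters in the window and do not show binding. A missing match covers only the window and the letters searched, not sites further from the start.

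The 3′ UTR of Ptgs2 is rich in ATTTA, the core of AU-rich elements that are known to shorten the life of many inflammatory mRNAs. The longest annotated 3′ UTR (GENCODE M21) held 14 copies in 2445 bases, where 2.76% of 10062 tested genes held as many and the median was 2. Ptgs1 and Ptges held 0, and Pla2g4a held 4 in 443 bases. Per kb, Ptgs2 held 5.73 copies and Pla2g4a more, at 9.03, with Alox5ap at 4.77. As many per kb were held by 4.39%, 1.15% and 6.86% of the tested genes. The stretch at bases 12 to 41 of the Ptgs2 3′ UTR (chr1:150105794-150105823, plus strand) carries 4 of them, in capitals.
Ptgs2 3′ UTR site: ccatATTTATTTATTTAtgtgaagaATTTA

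Ptges, microsomal prostaglandin E synthase-1, is the inducible terminal enzyme that is coupled to cyclooxygenase-2. It stood at 1.97, 1.94 and 2.78 FPKM in silenced and 2.04, 1.39 and 2.31 FPKM in control cells after LPS, and at 0.315, 0.115 and 0.400 FPKM and 0.284, 0.109 and 0.381 FPKM without LPS. All 6 LPS libraries were above all 6 libraries without LPS, while silenced and control cells overlapped at both times. It rose with LPS in silenced (1.34 ± 0.18 on the log2 scale, adjusted p = 8e-05) and in control cells (1.20 ± 0.18, adjusted p = 0.000182), with ratios of means of 8.05 and 7.41. In contrast to Ptgs2, the log2 difference between silenced and control cells after LPS was 0.15 (95% interval -0.24 to 0.54, adjusted p = 0.776). A processed pseudogene, Gm13400, lies within Ptges (chr2:30889471-30929863) on the same strand.

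Neither of the other prostaglandin E synthases was called with LPS. Ptges2, the membrane-associated enzyme called mPGES-2, stood at 3.05, 3.42 and 1.87 FPKM in silenced and 3.34, 4.93 and 2.73 FPKM in control cells after LPS, and at 4.70, 4.32 and 3.53 FPKM and 3.60, 4.08 and 3.45 FPKM without LPS. In silenced cells the LPS libraries were all below those without LPS, and the log2 fold change of -0.47 ± 0.19 did not pass (adjusted p = 0.0629). It passed in 4 of 21 alternative fits, among them those without replicate 2 of the control LPS group (adjusted p = 0.0365) and without replicate 2 of the silenced LPS group (adjusted p = 0.0405). Ptges as a share of Ptges plus Ptges2 was 45.1 ± 12.9% in silenced and 35.2 ± 12.2% in control cells after LPS, and 6.36 ± 3.79% and 6.62 ± 3.73% without LPS. That sum leaves out Ptges3. With Ptges3 included, Ptges held 2.57% in silenced and 1.68% in control cells after LPS, and 0.289% and 0.267% without LPS. Ptges3 held 94.2% and 95.1% after LPS.

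Ptges3, the cytosolic synthase that is also the Hsp90 co-chaperone p23, was the most abundant of the 10 genes without LPS. It stood at 79.1, 85.4 and 81.6 FPKM in silenced and 108, 106 and 109 FPKM in control cells after LPS, and at 104, 75.3 and 88.5 FPKM and 95.3, 105 and 87.9 FPKM without LPS. After LPS every silenced library was below every control library, and the log2 difference of -0.39 ± 0.11 did not pass (adjusted p = 0.137, and 0.0946 to 0.321 over the alternatives). The LPS response in control cells, 0.17 ± 0.11, passed with median-ratio scaling (0.40, adjusted p = 0.0115) and was -0.12 with quantile normalization. Its processed pseudogene on another chromosome is listed as a record of its own, so reads may be split between the pair and the Ptges3 level is uncertain.

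Tbxas1, thromboxane A synthase, stayed near the lower limit. It stood at 0.808, 0.576 and 1.24 FPKM in silenced and 0.691, 0.385 and 0.830 FPKM in control cells after LPS, and at 0.795, 0.605 and 0.628 FPKM and 0.899, 0.532 and 0.901 FPKM without LPS. The 4 groups overlapped, and 1 of 12 libraries reached FPKM of 1. Without the filter on low values, its LPS response was 0.15 ± 0.16 in silenced and -0.12 ± 0.16 in control cells on the log2 scale (adjusted p = 0.594 and 0.674).

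Pla2g4a, which feeds both arms of the pathway, fell with LPS. It stood at 28.6, 28.5 and 21.9 FPKM in silenced and 21.7, 24.7 and 18.2 FPKM in control cells after LPS, and at 48.9, 53.8 and 55.0 FPKM and 46.4, 48.9 and 45.1 FPKM without LPS. All LPS libraries lay below all libraries without LPS. The log2 fold change was -0.98 ± 0.12 in silenced (adjusted p = 5.23e-05) and -1.10 ± 0.12 in control cells (adjusted p = 2.41e-05), and both held in 22 of 22 alternatives. The LPS means were 50.1% and 45.9% of the means without LPS. Silenced cells differed from control cells by 0.28 ± 0.12 after LPS and 0.16 ± 0.12 without, and neither passed (adjusted p = 0.361 and 0.631).

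Pla2g4a (chr1:149829618-149961290, minus strand) is the neighbour of Ptgs2. The genes lie 139 kb apart, with 3 annotated genes between them, none of them protein-coding. They moved in opposite directions with LPS in both kinds of cell. Within the LPS groups their values after silencing were 1.28 for Ptgs2 and 0.28 for Pla2g4a on the log2 scale.

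No gene of the leukotriene arm rose with LPS in this fit, although other scalings raised Lta4h in control cells. Alox5ap, whose protein FLAP presents arachidonic acid to 5-lipoxygenase, stood at 36.7, 36.2 and 42.0 FPKM in silenced and 40.2, 35.7 and 35.6 FPKM in control cells after LPS, and at 67.1, 59.4 and 56.8 FPKM and 53.9, 46.7 and 54.7 FPKM without LPS. All LPS libraries lay below all libraries without LPS. It fell with LPS by 0.66 ± 0.10 on the log2 scale in silenced (adjusted p = 0.000166) and by 0.47 ± 0.10 in control cells (adjusted p = 0.00196). The call in control cells was lost with median-ratio scaling (-0.23, adjusted p = 0.0711). Without LPS every silenced library exceeded every control library, by 0.23 ± 0.10 on the log2 scale, which did not pass (adjusted p = 0.377).

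Alox5, the 5-lipoxygenase itself, had a far lower level than Alox5ap. It stood at 3.83, 3.30 and 4.92 FPKM in silenced and 3.39, 3.02 and 5.40 FPKM in control cells after LPS, and at 3.84, 3.70 and 6.36 FPKM and 4.73, 2.62 and 5.80 FPKM without LPS. The 4 groups overlapped and no contrast was called. Its log2 response to LPS was -0.15 (95% interval -0.72 to 0.43) in silenced and -0.11 (95% interval -0.68 to 0.47) in control cells.

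Lta4h, which completes leukotriene B4, had the narrowest range of the 10 genes, its highest level being 1.42 times its lowest. It stood at 8.19, 7.33 and 7.46 FPKM in silenced and 8.92, 10.4 and 7.99 FPKM in control cells after LPS, and at 9.97, 10.1 and 9.44 FPKM and 7.81, 8.52 and 7.62 FPKM without LPS. In silenced cells it fell with LPS by 0.32 ± 0.10 on the log2 scale (adjusted p = 0.0168), whereas in control cells the difference was 0.16 ± 0.10 (adjusted p = 0.189). The difference between these responses, -0.49 ± 0.14, did not pass (adjusted p = 0.284). The fall in silenced cells was lost with median-ratio scaling (-0.07, adjusted p = 0.569), quantile normalization (-0.08, adjusted p = 0.514) and estimated depth as a covariate (adjusted p = 0.061). It was also lost without replicate 2 of the silenced group with LPS (adjusted p = 0.058) and without replicate 2 of the silenced group without LPS (adjusted p = 0.0516). In control cells those scalings gave 0.37 and 0.38 (adjusted p = 0.00559 and 0.00441). Which kind of cell had a called change in Lta4h thus rests on the scaling, while the sign in each did not change. Over the 22 alternatives the value ran from -0.38 to -0.07 in silenced and from 0.07 to 0.38 in control cells.

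With LPS, 5 of the 9 tested genes were called in silenced cells, where 48.5% of all tested genes were called, and 4 of 9 in control cells, where 48.2% were. Ptgs2 and Ptges were higher and Pla2g4a and Alox5ap lower in both kinds of cell, with Lta4h lower in silenced cells. Over all tested genes, 13.0% were called higher and 35.5% lower in silenced cells, and 15.3% and 32.9% in control cells. The members' shares in all are near those of all genes. The median log2 fold change over all tested genes was -0.21 in silenced and -0.17 in control cells, and 0.02 in both with median-ratio scaling. Over all genes, 26.8% of the calls in silenced and 31.7% in control cells were higher, against 51.3% and 53% with median-ratio scaling. The 2 LPS comparisons share no library, and each shares libraries with the silencing comparisons.

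**Figure D3:**
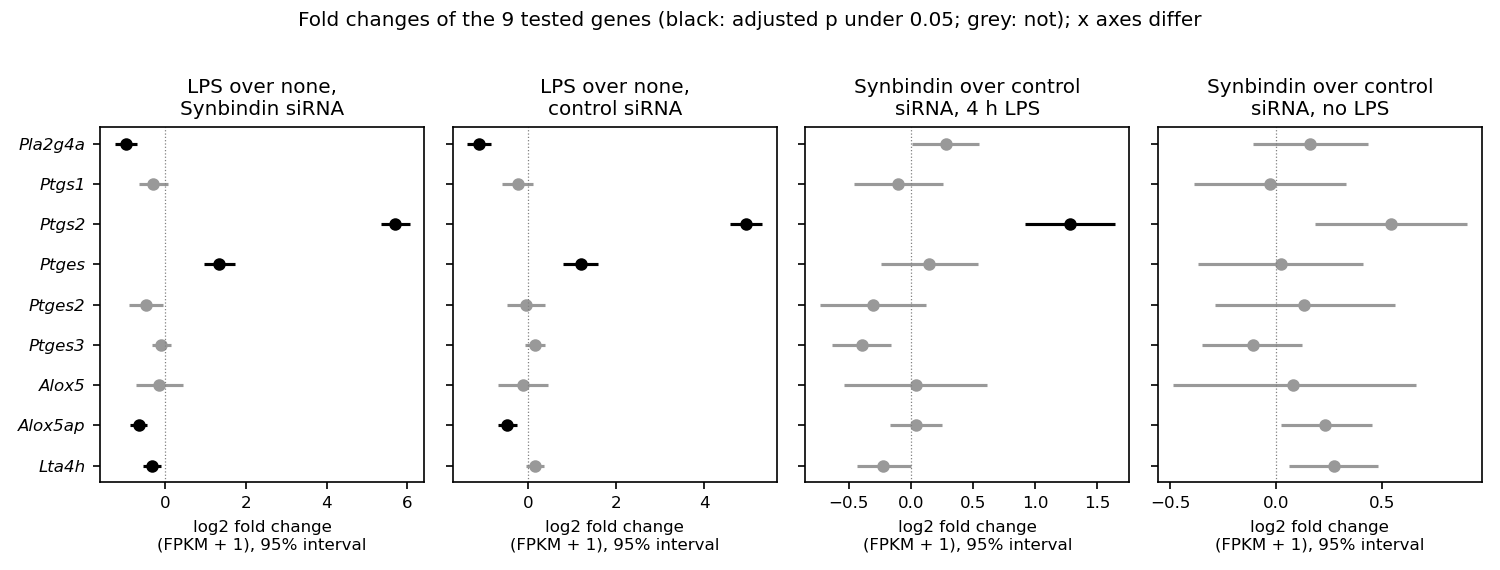
Log2 fold changes of FPKM + 1 (x axes, which differ in range) with 95% intervals for the 9 tested genes in 4 comparisons, each with the group named first over the second. Black marks an adjusted p under 0.05. LPS moved Ptgs2, Ptges, Pla2g4a and Alox5ap in both kinds of cell and Lta4h in silenced cells, while between silenced and control cells the single black point is Ptgs2 after LPS, at 1.28.

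Some of the genes varied by replicate number as well as by group. In each of the 4 groups replicate 3 held the highest and replicate 2 the lowest level of both Alox5 and Ptges. Ptges2 was lowest in replicate 3 of all 4 groups, and Tbxas1 lowest in replicate 2 of all 4. For Pla2g4a, Ptgs1, Ptgs2, Ptges3, Alox5ap and Lta4h, no replicate number was highest or lowest in all 4 groups. How often genes outside the set show such an order was not tested. Ptges in replicate 2 ran from 0.109 to 1.94 FPKM and in replicate 3 from 0.381 to 2.78 FPKM over the groups. Alox5 ran from 2.62 to 3.70 FPKM in replicate 2 and from 4.92 to 6.36 FPKM in replicate 3. The labels do not say what a replicate number shares.

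Outside the 10 genes, 69 further genes of eicosanoid metabolism were in the table, from phospholipases to receptors, and 37 of them were tested. With LPS, 5 rose and 14 fell in silenced cells, where 13.0% of all tested genes were called higher and 35.5% lower, and 7 rose and 16 fell in control cells, where 15.3% and 32.9% were. With median-ratio scaling the counts were 7 and 12 in silenced and 9 and 12 in control cells. Their median log2 fold change was -0.25 in silenced and -0.29 in control cells, against -0.21 and -0.17 over all tested genes. Between silenced and control cells, 1 gene was called after LPS, where 0.719% of all tested genes were called. The count after LPS was 0, 1 or 2 over the alternatives, with 2 in the fit with the replicate block. Without LPS, limma called 0, where 0.214% were. There, 8 of the 37 had an unadjusted p under 0.05, beside 1565 of all 13078 tested genes. After LPS 11 of the 37 did, beside 1697 of all 13078. The counts of each role that follow stand beside the same shares over all tested genes, 48.5% called in silenced and 48.2% in control cells, and nothing particular to a role is read from them.

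The gene called after LPS was Pla2g5, a secreted phospholipase A2 of macrophages. It stood at 17.2, 15.6 and 15.7 FPKM in silenced and 10.5, 11.3 and 10.8 FPKM in control cells after LPS, and at 8.58, 10.1 and 7.57 FPKM and 6.42, 6.36 and 5.42 FPKM without LPS. Silenced libraries exceeded control libraries at both times, by 0.54 ± 0.10 on the log2 scale after LPS (adjusted p = 0.0472) and by 0.46 ± 0.10 without (adjusted p = 0.12). The call after LPS held in 6 of 22 alternatives, with adjusted p from 0.0299 to 0.166, and in 2 of 12 fits with a library left out, those without replicate 2 or 3 of the silenced group without LPS. Pla2g5 rose with LPS by 0.82 in silenced and 0.75 in control cells on the log2 scale (adjusted p = 5.52e-05 and 0.000122).

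Of 8 tested phospholipases and lipases, 1 rose and 4 fell with LPS in silenced cells, and 1 rose and 5 fell in control cells, where 48.5% and 48.2% of all tested genes were called. The lysosomal phospholipase Pla2g15 averaged 2.33 ± 0.534 FPKM in silenced and 3.18 ± 0.700 FPKM in control cells after LPS, against 6.26 ± 1.78 and 6.36 ± 0.718 FPKM without LPS. It fell in both, by 1.11 and 0.83 on the log2 scale (adjusted p = 0.000448 and 0.00336). Daglb, a diacylglycerol lipase of endocannabinoid synthesis, fell by 1.02 in silenced and by 1.07 in control cells (adjusted p = 0.000208 and 0.000149). Pla2g2e, another secreted phospholipase A2, fell by 0.94 in control cells (adjusted p = 0.00114), and its value in silenced cells was -0.22 (adjusted p = 0.328).

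All 12 genes of arachidonate handling were tested, and 2 rose and 5 fell with LPS in silenced cells, and 3 rose and 4 fell in control cells, beside the same 48.5% and 48.2% of all tested genes. Elovl5, which elongates polyunsaturated fatty acids, averaged 11.9 ± 2.99 FPKM in silenced and 13.9 ± 2.59 FPKM in control cells after LPS, against 37.1 ± 1.67 and 33.7 ± 2.92 FPKM without LPS. It fell by 1.59 and 1.23 on the log2 scale (adjusted p = 1.48e-05 and 0.000113). Lpcat1, a lysophosphatidylcholine acyltransferase, fell by 1.12 and 0.99 in silenced and control cells (adjusted p = 0.000834 and 0.00199). The acyl-CoA synthetases Acsl3 and Acsl1 moved apart. Acsl3 fell by 0.76 in silenced and 0.36 in control cells (adjusted p = 5.16e-05 and 0.00921), and Acsl1 rose by 0.46 and 0.75 (adjusted p = 0.0402 and 0.00323). The Acsl3 call in control cells was lost with median-ratio scaling (adjusted p = 0.276) and quantile normalization (adjusted p = 0.14). The Acsl1 call in silenced cells held in 12 of 22 alternatives, and was lost without any 1 of the 3 silenced LPS libraries, replicate 1 or 2 of the silenced group without LPS, or replicate 3 of the control group without LPS (adjusted p from 0.0506 to 0.16).

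Among the other prostanoid synthases, 3 were tested; 1 fell with LPS in silenced and 2 in control cells, where 35.5% and 32.9% of all tested genes fell. Hpgds, the haematopoietic prostaglandin D2 synthase, stood at 9.15, 10.2 and 9.38 FPKM in silenced and 6.76, 6.05 and 8.18 FPKM in control cells after LPS, and at 24.3, 24.0 and 24.2 FPKM and 21.6, 19.6 and 27.4 FPKM without LPS. The LPS and no-LPS libraries did not overlap, and it fell by 1.25 in silenced and 1.57 in control cells on the log2 scale (adjusted p = 9.02e-06 and 1.73e-06). Hpgds thus stood above Ptges in every library, by FPKM. The carbonyl reductase Cbr1 fell by 0.75 in control cells (adjusted p = 0.00847), with -0.49 in silenced cells (adjusted p = 0.0603). Ptgds and Ptgis, the lipocalin-type prostaglandin D and the prostacyclin synthases, were listed at 0 in all libraries.

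Of 5 tested genes of the wider leukotriene route, 1 rose and 1 fell with LPS in silenced cells, and 1 rose and 2 fell in control cells, where 48.5% and 48.2% of all tested genes were called. Dpep2, a dipeptidase that converts leukotriene D4 to E4, stood at 49.5, 56.4 and 77.0 FPKM in silenced and 37.0, 23.9 and 43.0 FPKM in control cells after LPS, and at 5.35, 4.57 and 7.37 FPKM and 6.62, 4.51 and 7.04 FPKM without LPS. It rose with LPS by 3.19 ± 0.24 in silenced and 2.32 ± 0.24 in control cells on the log2 scale (adjusted p = 1.07e-06 and 1.39e-05). A second record of the same symbol lies below the filter, so reads of the pair may be split. The leukotriene C4 synthase Ltc4s fell by 0.75 in control cells (adjusted p = 0.0163), and its value in silenced cells was -0.24 (adjusted p = 0.409). That call was lost without replicate 2 of the control LPS group (adjusted p = 0.0605), without replicate 3 of the control group without LPS (adjusted p = 0.0634) and with quantile normalization (adjusted p = 0.0711). Mgst2, a microsomal glutathione transferase that can also make leukotriene C4, fell by 0.63 in silenced and 0.65 in control cells (adjusted p = 0.00355 and 0.00309). Its call in silenced cells was lost with quantile normalization (-0.36, adjusted p = 0.0668).

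Of 5 tested genes of breakdown and export, 1 rose and 2 fell with LPS in silenced cells, and 2 rose and 2 fell in control cells, against 48.5% and 48.2% of all tested genes called. The exporters differed in direction. Abcc1, which exports leukotriene C4, rose by 0.47 in silenced and 0.58 in control cells (adjusted p = 0.000261 and 5.46e-05), and Abcc4, which exports prostaglandin E2, fell by 0.71 and 0.53 (adjusted p = 3.99e-05 and 0.000373). Ptgr1, which inactivates leukotriene B4 and prostaglandin metabolites, rose by 0.73 in control cells (adjusted p = 0.00784), with 0.23 in silenced cells (adjusted p = 0.341). Cbr3, a carbonyl reductase, fell by 0.71 in silenced cells (adjusted p = 0.00595), with -0.29 in control cells (adjusted p = 0.202). The call was lost with quantile normalization (-0.43, adjusted p = 0.0617).

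Of 9 prostanoid receptors 3 were tested, and of 6 receptors in the leukotriene list 1 was, where 13078 of all 53801 gene records were tested. The prostacyclin receptor Ptgir averaged 3.39 ± 1.01 FPKM in silenced and 1.82 ± 0.129 FPKM in control cells after LPS, a log2 difference of 0.61 ± 0.17 that did not pass (adjusted p = 0.137). Ptger1, a prostaglandin E2 receptor, averaged 0.840 ± 0.242 and 0.337 ± 0.241 FPKM in the same groups (0.47 ± 0.22, adjusted p = 0.405). Ptger4, the remaining tested prostanoid receptor, averaged 1.60 ± 0.254 and 1.96 ± 0.331 FPKM there (-0.19, adjusted p = 0.647). Cysltr1, a receptor for cysteinyl leukotrienes, fell with LPS by 0.90 in silenced and 0.84 in control cells (adjusted p = 8.77e-05 and 0.000148). Its mean was 3.21 FPKM in silenced and 3.21 FPKM in control cells after LPS, and 6.85 and 6.52 FPKM without LPS.

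**Figure D4:**
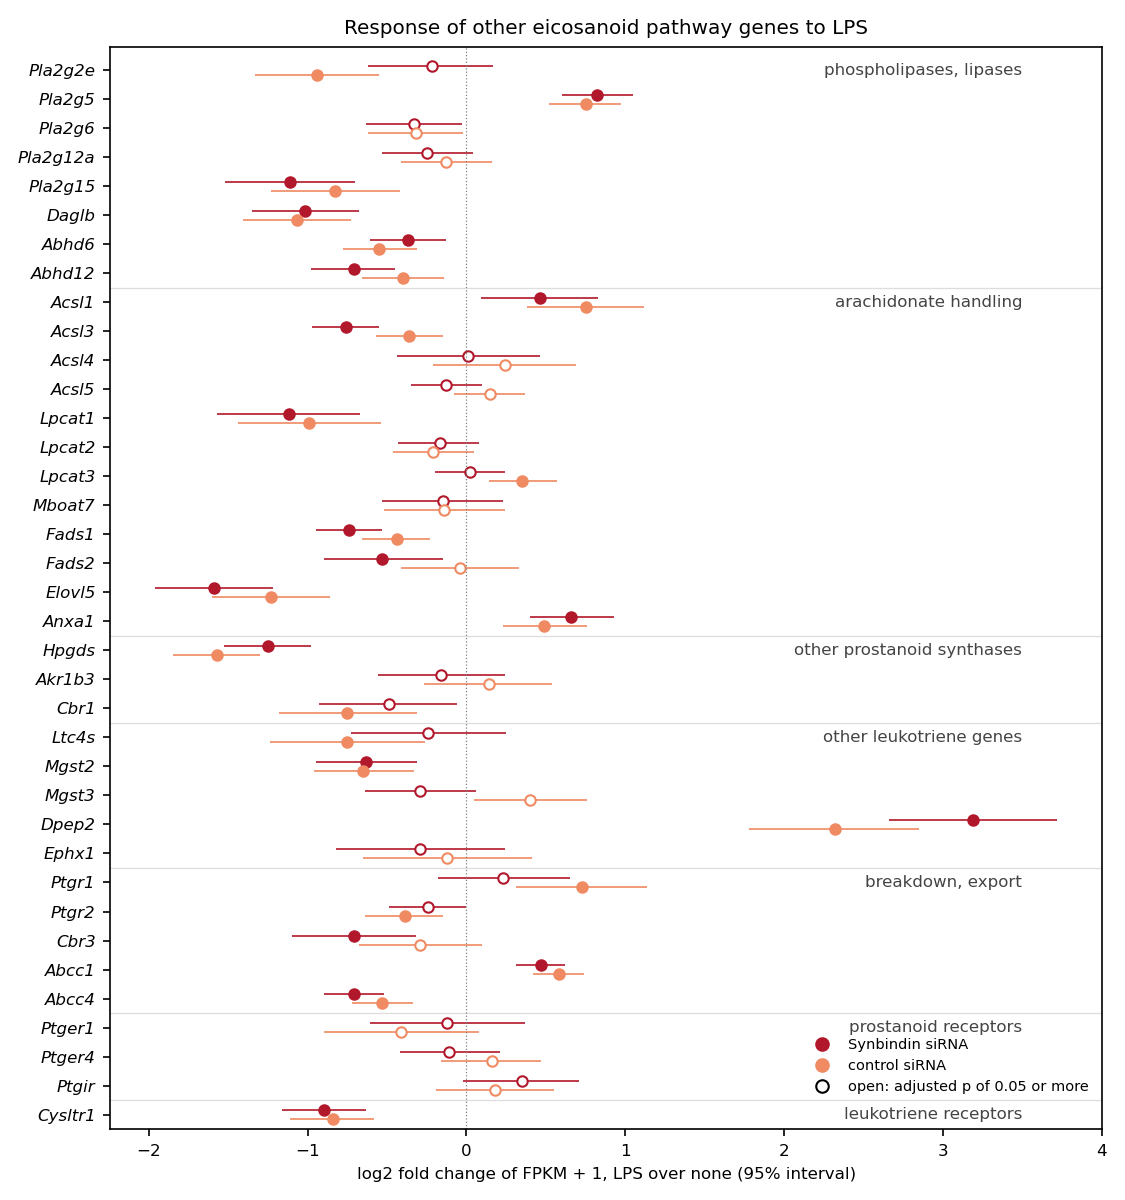
Log2 fold change of FPKM + 1 with LPS over none (x axis, 95% intervals) for the 37 tested genes of the wider pathway, grouped by role, in silenced cells (dark red, upper of each pair) and control cells (orange). Filled points had an adjusted p under 0.05. Dpep2 lies far to the right at 3.19 and 2.32, and Hpgds and Elovl5 lie below -1 in both kinds of cell.

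The genes whose profile lay nearest to that of Ptgs2 over the 12 libraries were the chemokine Ccl4 (root mean square difference 0.41 on the log2 scale), the guanylate-binding protein Gbp2 (0.44), the atypical chemokine receptor Ccrl2 (0.45), the inducible nitric oxide synthase Nos2 (0.47) and Gbp2b (0.51). Between silenced and control cells after LPS, these 5 genes differed by 0.45 to 0.65 on the log2 scale, against 1.28 for Ptgs2. None of the 5 was called there (limma, adjusted p from 0.0746 to 0.256). Nearest to Ptgs1 were Fnbp1, Ctnnb1 and Cep70 (0.12 each) and Aldoc and Vamp2 (0.13 each). The likeness was taken on log2(FPKM + 1) over 7338 genes, so for genes near 0 without LPS it depends on the pseudocount. Control cells without LPS averaged 55.7 FPKM of Ccl4, and 0.122, 0.66, 0.0743 and 0.201 FPKM of Gbp2, Ccrl2, Nos2 and Gbp2b. These profiles share the same libraries and depth, and the likeness is a description.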

How the data were processed

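RNA-seq of 12 libraries was analysed from 1 table of gene FPKM deposited by the authors. Per the submitters' processing notes, HISAT2, StringTie and the GRCm38 build were used; the sources used here do not give their versions, settings or annotation release. Libraries were strand-specific, per the labels. Because FPKM are normalized values, count tests were not run. Depth was estimated from the step between low values of genes with 1 transcript, and since 3.74% to 8.61% of such values fell within 1% of a whole step, depths are rough.

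limma 3.58.1 (R 4.3.3) was fitted to log2(FPKM + 1) of the 13078 genes that reached FPKM of 1 in 3 or more libraries, with 1 mean per group, an intensity trend and 8 residual degrees of freedom. A pseudocount understates changes of low genes. Tests were 2-sided and adjusted over all tested genes. Exact permutation tests of 3 against 3 libraries cannot go below 0.1. The test was checked on simulated data with independent noise for each gene. Changes were added only to genes of higher mean level, so low genes and effects shared by replicate number were not covered.

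The members and all gene lists were chosen with earlier results of these data known. Of each wider list, up to 4 genes called in any comparison are named, by largest fold change, or the 2 with the smallest p where none was called. Likeness was measured over genes with a group mean FPKM of at least 5, leaving out predicted, clone, pseudogene and mitochondrial gene names. Coordinates come from GENCODE M21 (GRCm38) and promoter windows from RefSeq (GRCm38.p6), which held 9 of the 10 genes. The closing section gives the alternatives tried.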

Additional observations from a re-analysis of the deposited data

How the results depend on the processing

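The alternatives were 9 other settings, each library left out in turn (12 fits) and, chosen after seeing the data, estimated depth as a covariate. The 2 calls each of Ptgs2, Ptges and Pla2g4a for LPS held in all of them where the gene was tested, and so did Alox5ap in silenced cells. Ptges and Ptges2 dropped out of the fit with a minimum FPKM of 5. By the rule that every pair must correlate above 0.1, the replicate numbers were not taken to pair the libraries: deviations of same-numbered libraries from their group means correlated at -0.0274 to 0.189 over 18 pairs, 3 of them above 0.1, although 10 of 12 libraries correlated best with their own number, a hint from the data and not the design. The replicate block gave 48 genes called between silenced and control cells without LPS (28 without the block) and an adjusted p of 0.0145 for Ptges2 with LPS in silenced cells; it also lost the call of Acsl1 with LPS in silenced cells (adjusted p = 0.061), and among the 9 genes tested it changed no other call. Of the 37 wider genes, the block called 2 between silenced and control cells after LPS (1 without it), 4 higher and 16 lower with LPS in silenced cells (5 and 14) and 8 and 16 in control cells (7 and 16).

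Genes called between silenced and control cells without LPS were 10 with no intensity trend, 6 when only the groups compared were fitted, 9 with the depth covariate and 3 to 41 with a library left out. After LPS, 94 genes became 38 with quantile normalization, 50 with no trend, 18 with the depth covariate, 10 to 91 with a library left out and 0 when only the groups compared were fitted, where Ptgs2 was lost too, so 0 of the 9 genes were called; with a library left out, 0 or 1 of the 9 were. For the difference between LPS responses, 8 genes became 5 with a pseudocount of 0.1, 4 with no trend and 0 to 20 with a library left out; it could not be fitted on the groups compared alone. The share of higher genes among those called after LPS was 43.6%, and 35.4%, 60.5% and 73.7% with a common sum, median-ratio scaling and quantile normalization; for the difference between responses it was 62.5%, and 57.1%, 83.3% and 71.4%.

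No reversal was of a called value. Without LPS, silencing gave -0.01 for Ptges with quantile normalization, and -0.12 for Ptges and -0.08 for Alox5 with the depth covariate, which gave -0.13 for Alox5 and -0.02 for Alox5ap after LPS. The LPS response in control cells became 0.15, 0.23 and 0.07 for Ptges2 (median-ratio, quantile, depth covariate), 0.08 and 0.15 for Alox5 (median-ratio, quantile) and -0.12 for Ptges3 (quantile). In silenced cells it became 0.17 for Ptges3 (median-ratio), and 0.08 and 0.14 for Alox5 (median-ratio, quantile). With a library left out, silencing without LPS ranged from -0.07 to 0.12 for Ptges, -0.18 to 0.27 for Alox5 and -0.17 to 0.16 for Ptgs1, and after LPS from -0.09 to 0.24 for Alox5 and -0.03 to 0.1 for Alox5ap. The LPS response ranged in control cells from -0.23 to 0.11 for Ptges2 and -0.37 to 0.09 for Alox5, and in silenced cells from -0.23 to 0.01 for Ptges3 and -0.27 to 0.06 for Alox5. The difference between responses ranged from -0.26 to 0.07 for Ptgs1 and -0.23 to 0.22 for Alox5. The cause of these changes was not tested.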

Other observations

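Annexin A1 (Anxa1), known as an inhibitor of phospholipase A2 action, is named here after its values were seen. It stood at 180, 198 and 244 FPKM in silenced and 145, 143 and 160 FPKM in control cells after LPS, and at 135, 134 and 120 FPKM and 120, 106 and 92.7 FPKM without LPS. It rose with LPS by 0.66 ± 0.12 in silenced and 0.49 ± 0.12 in control cells on the log2 scale (limma, adjusted p = 0.000783 and 0.0055), and the call of Anxa1 in control cells was lost with quantile normalization (0.21, adjusted p = 0.135). Fads1, the delta-5 desaturase that makes arachidonic acid, also named after its values were seen, fell by 0.74 and 0.44 (adjusted p = 7.36e-05 and 0.00271), and the call of Fads1 in control cells was lost with median-ratio scaling (-0.21, adjusted p = 0.0763).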
